A study of Mus musculus with 2 samples.

Results

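The microfibril and elastic fibre genes described here are Mfap2, Mfap4, Mfap5, Fbn1, Eln, Fbln2, Fbln5, Emilin1, Ltbp1 and Ltbp4. They were chosen by name from a list of microfibril and elastic fibre genes, without use of measured values, and are 10 of the 32285 genes in the count tables. Microfibrils are thin extracellular filaments built on fibrillins, and elastic fibres form where elastin is deposited on a microfibril scaffold. Microfibril-associated glycoproteins bind fibrillin, fibulins and EMILINs take part in elastin deposition, and latent TGF-beta binding proteins tether the latent growth factor TGF-beta to the same matrix. In the liver these proteins are known mainly from portal tracts, vessel walls and scars, and activated stellate cells and portal fibroblasts are known sources of scar matrix.

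The genes were followed in single liver cells other than hepatocytes from mice given carbon tetrachloride (CCl4), a liver toxin, into the peritoneum for 8 weeks. The labels describe 1 library from Mfap2+/+ animals (wild type) and 1 library from Mfap2-/- animals (knockout), and both genotypes received CCl4. Strain, sex, age, the number of animals behind a library and the way the Mfap2 allele was made are not given in the sources used here, and no animals without CCl4 were analysed here. Genotype, animal and library preparation therefore cannot be told apart, no test between genotypes was made, and every interval is a 95% interval that covers counting error only.

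The wild-type count table has 11783 barcodes and 82499307 unique molecular identifiers (UMIs, tags that each mark 1 RNA molecule), a median of 4685 per barcode, and the knockout table has 12872 barcodes, 118226367 UMIs and a median of 6511. The tables shared 40 barcodes. Hepatocyte markers gated 25 wild-type and 68 knockout cells, so few hepatocytes were present. Cells were typed by marker genes that exclude the 10 genes described here, which placed 80.8% (wild type) and 81.0% (knockout). Cells with markers of several types were set aside. The mesenchymal gate, for stellate cells, fibroblasts and smooth muscle, held 262 wild-type cells (median 12565 UMIs) and 252 knockout cells (median 14767). By the highest share of subtype markers, 220 and 207 of these were typed as stellate cells, 14 and 11 as fibroblasts and 10 and 8 as smooth muscle, although a cell may carry markers of several subtypes.

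A level is given as the UMIs of a gene summed over the cells of a type, per 1000000 UMIs of those cells (CPM). Each UMI is counted once at the 3′ end of its RNA, so levels were not scaled by gene length. In GENCODE M21 on mouse build GRCm38, Mfap2 (ENSMUSG00000060572) spans chr4:141010418-141015984 on the forward strand and overlaps no other gene of the count tables. Mfap4 overlaps Mapk7, Fbn1 overlaps Gm9913 and Eln overlaps Gm30003, in each case a gene on the opposite strand. The other members lie at chr11:61485431-61488900 (Mfap4), chr6:122505845-122529290 (Mfap5), chr2:125300594-125507993 (Fbn1), chr5:134702593-134747323 (Eln), chr6:91212455-91272540 (Fbln2), chr12:101746565-101819055 (Fbln5), chr5:30913402-30921277 (Emilin1), chr17:75005568-75392512 (Ltbp1) and chr7:27305136-27337692 (Ltbp4).

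Upstream sequences are shown for the gene that was knocked out and for the pair of other members whose upstream window lies wholly outside the annotated gene. The Mfap2 window reaches 6 bases into its gene. RefSeq (GRCm38.p6) gives the 250 bases before the start of Mfap2 at chr4:141010174-141010423 on the forward strand, of Ltbp1 at chr17:75005279-75005528 on the forward strand and of Fbln5 at chr12:101819120-101819369 on the reverse strand. Capitals mark matches, on either strand, to a TATA box (TATAAA), a SMAD element (CAGAC), a GC box (GGGCGG) or an AP-1 site (TGACTCA).
Mfap2: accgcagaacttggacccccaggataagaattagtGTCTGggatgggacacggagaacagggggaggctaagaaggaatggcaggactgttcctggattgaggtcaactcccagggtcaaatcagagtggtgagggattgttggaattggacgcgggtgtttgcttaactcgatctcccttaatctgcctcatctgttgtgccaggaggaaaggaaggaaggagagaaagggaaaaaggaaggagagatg
Ltbp1: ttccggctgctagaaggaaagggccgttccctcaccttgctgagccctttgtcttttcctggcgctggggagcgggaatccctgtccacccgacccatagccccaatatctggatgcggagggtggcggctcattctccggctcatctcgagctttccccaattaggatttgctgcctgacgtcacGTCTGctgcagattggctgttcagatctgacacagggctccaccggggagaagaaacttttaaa
Fbln5: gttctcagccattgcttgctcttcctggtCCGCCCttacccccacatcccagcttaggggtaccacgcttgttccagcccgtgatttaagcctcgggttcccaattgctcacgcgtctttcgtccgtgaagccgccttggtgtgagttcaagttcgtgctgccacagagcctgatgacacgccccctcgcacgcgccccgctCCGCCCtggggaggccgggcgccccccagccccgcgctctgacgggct
Mfap2 and Ltbp1 each hold 1 SMAD element, and Fbln5 holds 2 GC boxes. Of 32851 such windows in the RefSeq table, 42.2% hold a SMAD element, 32.7% a GC box, 12.4% a TATA box and 4.46% an AP-1 site, and no TATA box or AP-1 site lies in the windows shown. The GC content of the windows is 51.2% (Mfap2), 56.8% (Ltbp1) and 65.2% (Fbln5).

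Mfap2 encodes the microfibril-associated glycoprotein MAGP-1 and was read first, since it is the targeted gene. In wild-type mesenchymal cells it stood at 54.3 CPM (46.8 to 62.7, 187 UMIs). In knockout mesenchymal cells it stood at 0.515 CPM (0.0623 to 1.86, 2 UMIs). The wild-type level was 106-fold that of the knockout, with a counting interval of 28.8 to 878. Over all cells that passed the filters, the wild-type library held 257 Mfap2 UMIs, 72.8% of them in mesenchymal cells, and the knockout library held 4. A UMI of Mfap2 was found in 93 of 262 mesenchymal cells of the wild-type library (35.5%, 29.7 to 41.6) and in 2 of 252 of the knockout library (0.794%, 0.0963 to 2.84). Each cell was also thinned to a depth of 5000 UMIs, with 45 and 38 shallower cells dropped. At that depth Mfap2 was found in 48 of 217 cells of the wild-type library (22.1%) and 0 of 214 of the knockout library, and the count of 0 allows a share of up to 1.40%. B cells were taken as a gauge of free RNA, on the assumption that they do not make these matrix proteins. They had an Mfap2 UMI in 1 of 1152 wild-type cells (0.0868%, median depth 3474 UMIs). In the knockout 0 of 1752 had it, which allows up to 0.171% (median depth 4864). B cells are shallower than mesenchymal cells, so these shares are not compared at equal depth. The Mfap2 counts thus went with the genotype labels. The part of the gene that was removed is not given in the sources used here.

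**Figure D1:**
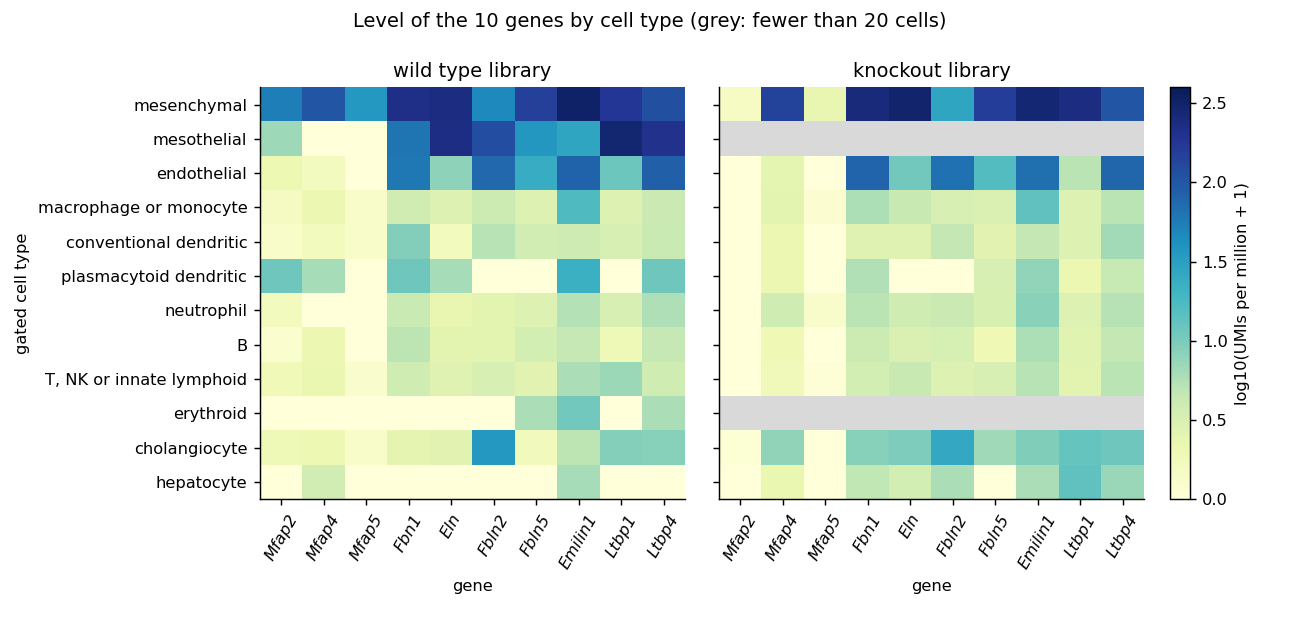
Level of the 10 genes in each gated cell type of each library, as log10 of CPM plus 1 (colour), with cell types in rows and genes in columns and grey for types of fewer than 20 cells. Mesenchymal, mesothelial and endothelial rows are darkest, Mfap2 is darkest in wild-type mesenchymal cells, and Fbln2 is also dark in cholangiocytes.

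Mesenchymal cells had the highest level of most of the genes. Over the 12 wild-type cell types with at least 20 cells, 7 of the 10 genes had their highest level in mesenchymal cells, beside 8.66% of all 15518 genes measured there. The other 3, Fbln2, Ltbp1 and Ltbp4, were highest in mesothelial cells, the lining of the liver surface, as were 10.7% of all genes. In the knockout, where the 8 mesothelial cells were too few to compare, 8 of the 9 genes other than Mfap2 were highest in mesenchymal cells, beside 13.2% of all genes, and Fbln2 was highest in endothelial cells.

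Of the glycoproteins and the fibrillin, Mfap5 encodes MAGP-2. In the wild type 82.2% of its 146 UMIs were in mesenchymal cells, and 0 UMIs were in 1147 endothelial cells. Those mesenchymal UMIs lay in 7 cells, of which 2 held 82.5% of them, so this placing rests on few cells. Mfap4, a fibrinogen-domain glycoprotein that binds elastic fibres, was at 104 CPM (93.2 to 115) in wild-type mesenchymal cells, 0.612 in endothelial cells and 1.12 in B cells. Fbn1, which encodes fibrillin-1, the backbone of microfibrils, was spread more widely. It stood at 213 CPM (198 to 229) in wild-type mesenchymal cells, 62.5 (38.7 to 95.6) in mesothelial cells and 59.5 (53.8 to 65.7) in endothelial cells, against 4.02 in B cells. Its mesothelial and endothelial intervals overlapped, so those neighbours in the order could not be separated. Endothelial cells held 25.3% of wild-type and 35.6% of knockout Fbn1 UMIs, against 47.8% and 34.1% in the fewer mesenchymal cells.

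Eln, which encodes elastin, was at 235 CPM (219 to 252) in wild-type mesenchymal cells and at 226 (178 to 283) in mesothelial cells, levels that did not differ beyond counting error. In endothelial cells it was at 7.19 (5.28 to 9.56). Fbln5, a fibulin that binds elastin and is needed for elastic fibres, stood at 150 (137 to 163) in mesenchymal, 35.7 (18.5 to 62.4) in mesothelial and 23.1 (19.6 to 27.1) in endothelial cells. Emilin1, an elastin-associated glycoprotein, had the highest mesenchymal level of the 10 genes in the wild type, 328 CPM (309 to 348), and was found in 84.0% of the cells. It was at 81.6 (74.8 to 88.8) in endothelial cells and 15.8 in macrophages or monocytes, where the 10 mesenchymal gate markers summed to 0.828% of their mesenchymal level and Emilin1 to 4.82%. In B cells Emilin1 stood at 3.57.

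Fbln2, a fibulin of vessel walls and basement membranes, was spread over several cell types. In the wild type it was at 119 CPM (85.1 to 162) in mesothelial cells, 75.6 (69.1 to 82.6) in endothelial cells, 45.9 (39.0 to 53.6) in mesenchymal cells and 35.3 (30.5 to 40.6) in cholangiocytes. A single cell held 31 of the 40 mesothelial UMIs, so that first place rests on it. Cholangiocytes, the epithelial cells of bile ducts, held Fbln2 in 62 of 217 cells (28.6%, median depth 11524 UMIs) in the wild type. In the knockout 69 of 250 held it (27.6%, median depth 14293). The shares in the shallower B cells were 0.608% and 1.26%. Over the 10 genes, no B cell share was above 1.56% in the wild type or 2.57% in the knockout. The wild-type cholangiocyte level of Fbln2 was 77.0% of its mesenchymal level, while the mesenchymal gate markers there reached 2.72%. That mesenchymal level rests largely on 1 cell, which held 57.0% of the mesenchymal Fbln2 UMIs. The other mesenchymal cells stood at 20.4 CPM, below the cholangiocytes, so the order of these cell types also rests on that cell.

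The latent TGF-beta binding proteins also reached beyond mesenchymal cells. Ltbp1 stood at 292 CPM (237 to 356) in mesothelial cells, 177 (163 to 192) in mesenchymal cells and 10.7 (8.35 to 13.5) in endothelial cells of the wild type. Ltbp4 stood at 205 (160 to 260), 113 (102.04 to 125) and 84.3 (77.4 to 91.7). The gap between mesenchymal and endothelial cells was thus wide for Ltbp1 and narrow for Ltbp4. The 22 wild-type mesothelial cells carried mesenchymal gate markers at 30.7% of the mesenchymal level, 65.5% of them in 5 cells, and the part of those cells in the mesothelial values was not tested.

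The mesenchymal cells of the 2 libraries were then compared gene by gene. All 10 genes had at least 20 UMIs over both libraries, as did 12730 genes in all. Of the 9 genes other than Mfap2, 5 were higher and 4 lower in the knockout, with 4 and 3 beyond their counting intervals. Of all genes, 58.7% were higher, close to the share of these 9. Their median log2 ratio of knockout over wild type was 0.07, beside 0.11 over all genes. Only Mfap5 passed a 2-fold difference, being lower in the knockout, where 1.99% of all genes were 2-fold or more lower, 4.79% 2-fold or more higher and 6.78% past 2-fold either way.

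**Figure D2:**
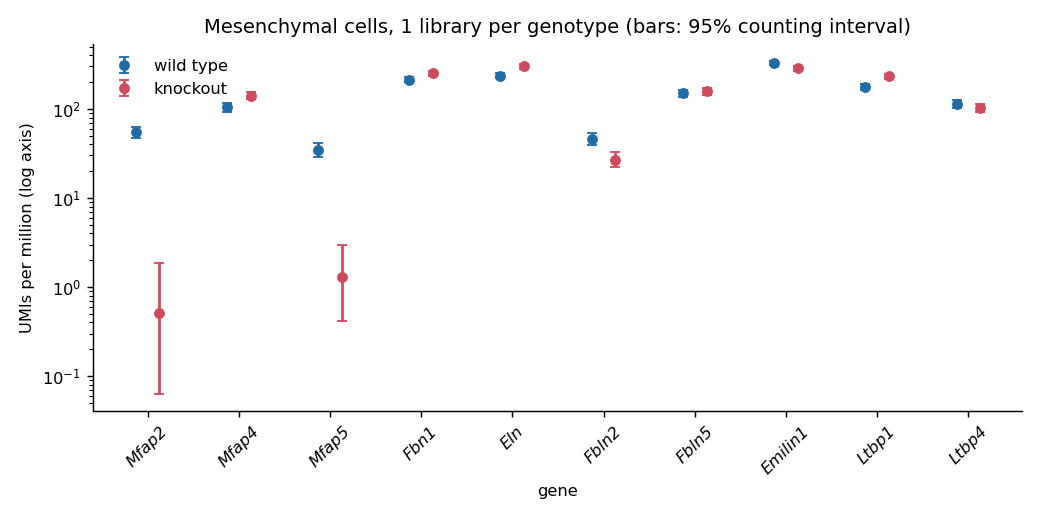
CPM (log axis) of each gene in the mesenchymal cells of the wild-type (blue, 262 cells) and knockout (red, 252 cells) libraries, with 95% counting intervals as bars. Mfap2 and Mfap5 lie far lower in the knockout library, and the other 8 genes lie within 2-fold of their wild-type level.

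Fbn1 went from 213 to 250 CPM (734 and 970 UMIs), a log2 ratio of 0.23 (0.09 to 0.37). Eln went from 235 to 300 (810 and 1166 UMIs), a log2 ratio of 0.35 (0.22 to 0.48). Ltbp1 went from 177 to 232 (610 and 903 UMIs), a log2 ratio of 0.39 (0.24 to 0.54). These 3 genes were higher in the knockout library under all 12 alternative ways of choosing cells, summing or scaling. Mfap4 went from 104 to 141 (357 and 549 UMIs), a log2 ratio of 0.44 (0.25 to 0.64), but the mean of per-cell values put it lower in the knockout, at -0.16. Emilin1 was lower in the knockout, 328 against 286 (1129 and 1111 UMIs), a log2 ratio of -0.20 (-0.32 to -0.08) that became 0.01 with cells thinned to 5000 UMIs. Fbln5 (150 and 157 CPM, log2 ratio 0.07) and Ltbp4 (113 and 103, log2 ratio -0.14) had intervals that include 0.

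Mfap5 was read from 120 and 5 UMIs, or 34.9 (28.9 to 41.7) and 1.29 (0.418 to 3.0) CPM, a log2 ratio of -4.51 (-6.41 to -3.50). These UMIs lay in 7 wild-type and 3 knockout cells, so the ratio compares few cells. It was -3.33 without the deepest wild-type cell, which held 69 of the 120 UMIs, and -1.96 as a mean of per-cell values. Fbln2 had 158 and 105 UMIs, 45.9 and 27.0 CPM, a log2 ratio of -0.76 (-1.13 to -0.40). That direction rested on the same cell: without it Fbln2 stood at 20.4 CPM in the wild type and the log2 ratio was 0.40, while the share of cells with an Fbln2 UMI was 10.7% (7.22 to 15.1) in the wild type and 14.3% (10.2 to 19.2) in the knockout.

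Other measures of the mesenchymal cells differed between the libraries beside these genes. The 10 gate markers summed to 17553 CPM (wild type) and 13530 CPM (knockout). A list of stellate activation genes summed to 4197 and 5402 CPM, with 8 of its 10 genes higher in the knockout beside 58.7% of all genes, and dissociation stress genes summed to 29114 and 30059. Their part in the ratios above was not tested.

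In a wider list of 30 microfibril, fibulin, EMILIN, LTBP, crosslinking and TGF-beta genes, 26 had enough UMIs in mesenchymal cells, and 15 were higher and 11 lower in the knockout, 9 and 3 of them beyond counting error, beside 58.7% of all genes higher. The list's median log2 ratio was 0.05. The 5 with the highest wild-type levels were Fn1 (fibronectin, 763 and 730 CPM), Itgav (integrin alpha V, 198 and 192), Ltbp2 (186 and 247), Fbn2 (fibrillin-2, 181 and 265) and Loxl1 (a lysyl oxidase that crosslinks elastin, 133 and 139). Ltbp2 (log2 ratio 0.41, 0.26 to 0.56) and Fbn2 (0.55, 0.40 to 0.69) were higher in the knockout, on the same side as Fbn1, Eln and Ltbp1. Adamts10, a secreted protein that binds fibrillin-1, was the 1 gene of the list past 2-fold, beside 4.79% of all genes 2-fold or more higher, at 39.5 CPM (136 UMIs) in the wild type and 88.2 (343 UMIs) in the knockout, a log2 ratio of 1.15 (0.87 to 1.46).

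Which genes shared the cells of Mfap2 was asked in the wild-type library, within the mesenchymal gate. The 93 cells with an Mfap2 UMI had a median of 14812 UMIs and the 169 without had 10387, so CPM levels and thinned cells were used beside shares. Of the 9 other genes, 7 were higher in the cells with Mfap2, all 7 beyond counting error, beside 50.6% of 7769 genes. Differences of 1.5-fold or more were seen for 4 of them, Mfap4, Mfap5, Eln and Fbln2, beside 6.62% of all genes.

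Mfap4 stood at 148 CPM in the cells with Mfap2 and 63.7 in those without, a log2 difference of 1.21 (0.89 to 1.55). It was found in 38 of 93 cells (40.9%) and 25 of 169 (14.8%). Eln stood at 331 and 148, a log2 difference of 1.16 (0.95 to 1.38), and was found in 74.2% and 45.6% of cells. Both differences remained with every cell thinned to 5000 UMIs, which left 48 cells with Mfap2 and 169 without: 183 against 56.8 CPM for Mfap4 (log2 1.69, 1.07 to 2.31) and 425 against 159 for Eln (1.43, 1.04 to 1.80). At that depth 7 of the 9 genes were higher, 2 beyond counting error and 4 by 1.5-fold or more, beside 52% and 7.37% of 3865 genes. Within stellate cells alone, 82 with Mfap2 and 138 without, the log2 difference was 1.74 for Mfap4 and 1.53 for Eln, and 8 of 9 genes were higher and 4 by 1.5-fold or more, beside 50.1% and 7.4% of genes. At a depth of 1000 UMIs, 11 cells held Mfap2, with 1 Mfap4 and 2 Eln UMIs in them. Mfap4 stood at 90.9 against 111 CPM and Eln at 182 against 226. The log2 differences, with 1 added to each sum, were 0.66 (-5.65 to 2.32) and 0.24 (-3.40 to 1.61), so no order could be read. Mfap4 and elastin RNA were thus higher in the cells with Mfap2 at 5000 UMIs and within stellate cells, and could not be placed at 1000 UMIs.

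Mfap5 (62.2 and 9.98 CPM, log2 2.58) and Fbln2 (80.6 and 14.4, log2 2.44) had larger differences that rested on the deepest cell. Without that cell 7 genes were again higher and 4 by 1.5-fold or more, beside 50.7% and 5.99% of genes. Mfap5 was then at 1.07 (0.24 to 2.02) and Fbln2 at 0.90 (0.18 to 1.69). That Mfap5 value came from 33 UMIs in 2 cells with Mfap2 and 18 UMIs in 4 cells without. A single cell held 30 of the 33, and an alternative that left out possible doublets removed it. In thinned cells Mfap5 was at 1.12 (-0.55 to 2.50) and Fbln2 at -0.03 (-2.30 to 1.34). Fbn1 (249 and 181 CPM, log2 0.46, 0.25 to 0.68), Ltbp1 (200 and 156, 0.36, 0.12 to 0.59) and Ltbp4 (128 and 99.2, 0.37, 0.07 to 0.67) were also higher in the cells with Mfap2, and their intervals reached 0 or below in thinned cells. The intervals of the other pair of genes included 0, Fbln5 (143 and 156 CPM, log2 -0.12, -0.38 to 0.13) and Emilin1 (320 and 335, -0.06, -0.23 to 0.11). Emilin1 was present in 93.5% of the cells with Mfap2 and 78.7% of those without, which are shallower. In cells thinned to 5000 UMIs these shares were 66.7% and 75.1%, with intervals that overlapped.

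**Figure D3:**
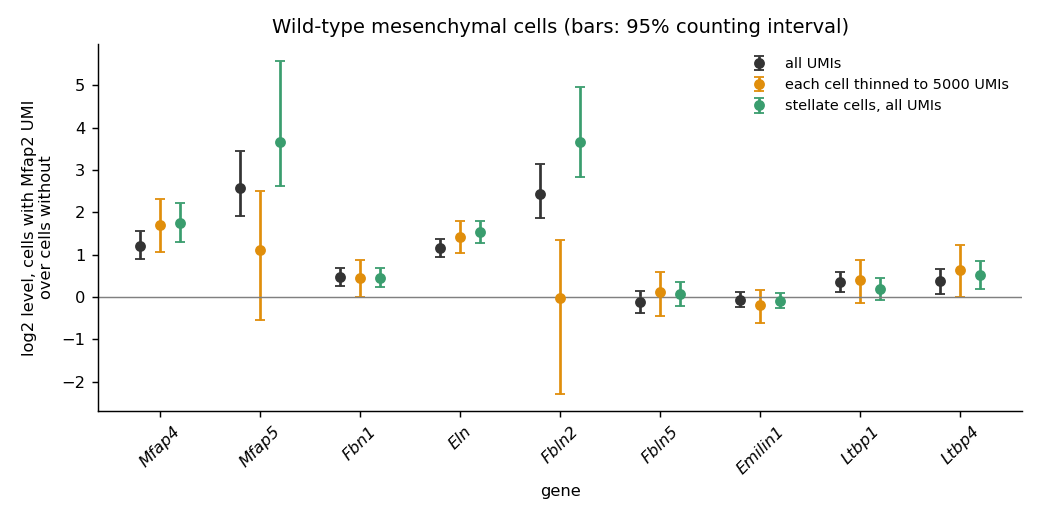
Log2 level of each gene in wild-type mesenchymal cells with an Mfap2 UMI over cells without, for all UMIs (black), cells thinned to 5000 UMIs (orange) and stellate cells (green), with 95% counting intervals as bars. Mfap4 and Eln lie above 1 in all 3 settings, Fbln5 and Emilin1 lie near 0, and Fbln2 lies near 0 in thinned cells.

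Cells with an Mfap2 UMI also differed in other genes. Stellate markers summed to 3489 CPM in them and 5645 in the cells without, stellate activation genes to 5071 and 3403, and dissociation stress genes to 29161 and 29072. An Mfap2 UMI was present in 37.3% of stellate, 50% of fibroblast (7 of 14) and 20% of smooth muscle cells (2 of 10). The stress level was close in both sets of cells, while the part of the activation genes was not tested.

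Likeness to Mfap2 was measured as the Pearson correlation of log2(1 + UMIs per 10000) over the 262 wild-type mesenchymal cells, among 3135 genes, where the points share 1 library and a common dependence on depth. The 5 genes most like Mfap2 were Fxyd6 (0.48), Ltbp2 (0.40), Ncam1 (0.38), Lpl (0.36) and Ptgis (0.35). Of the other 9 genes, Mfap4 was nearest, at 0.31. Mfap4 was most like Gas6 (0.67), Fbln1 (0.60) and Fmo2 (0.54), and Eln was most like Ncam1 (0.51) and Col1a1 (0.45). Ncam1 and Lpl (0.44 with Eln) thus stood among the 5 nearest genes of both Mfap2 and Eln. Ptgis (0.50) stood among those of Mfap4 as well as Mfap2, and Ltbp2 (0.35) among those of Ltbp4 as well as Mfap2. Gas6 (0.41 with Eln) and Itgbl1 (0.52 with Mfap4 and 0.44 with Eln) were shared by Mfap4 and Eln. Emilin1 had other neighbours, Steap4 (0.44), Lrmda (0.41), Ank3 (0.40), Kalrn (0.40) and Lrat (0.39), the last the retinol-esterifying enzyme of stellate cells. Mfap5 and Fbln2 were most like Slit3 (0.76 and 0.59) and Serpinf1 (0.60 and 0.58) and had a correlation of 0.74 with each other. Few cells held either gene, as described next.

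The genes differed in how many cells carried their RNA. Over the 7770 genes with at least 50 UMIs in wild-type mesenchymal cells, the 5 richest cells held a median of 16.0% of a gene's UMIs, and in 1.25% of genes they held 50% or more. Of the 10 genes, 2 were past that mark. For Mfap5 the 5 richest cells held 96.7%, and for Fbln2 79.1%. In the knockout, Fbln2 was again past it at 53.3%, beside 1.04% of genes, and Mfap5 had too few UMIs to place. Eln (33.0% and 20.6%) and Mfap4 (31.4% and 29.0%) came next in both libraries, Mfap2 was at 20.3% in the wild type, and Emilin1 was the most evenly spread at 9.65% and 7.56%.

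**Figure D4:**
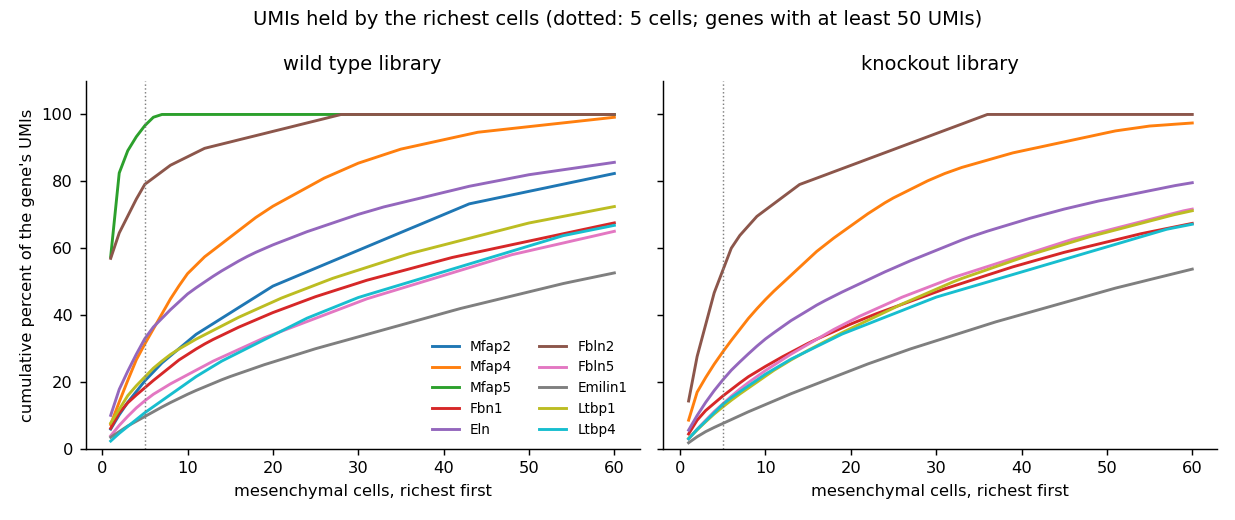
Cumulative percent of each gene's UMIs (vertical axis) held by the richest mesenchymal cells in order (horizontal axis, first 60 cells) in the wild-type and knockout libraries, for genes with at least 50 UMIs. Mfap5 and Fbln2 reach most of their UMIs by the 5-cell mark in the wild type, Fbln2 is again the steepest in the knockout, and Emilin1 climbs most slowly in both.

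A single wild-type cell, the deepest mesenchymal cell with 102412 UMIs, held 69 of the 120 Mfap5 UMIs and 90 of the 158 Fbln2 UMIs. In that cell Mfap5 was at 674 CPM and Fbln2 at 879, against 15.3 and 20.4 in the other mesenchymal cells. It also held 45 Fbn1 UMIs and 39 Emilin1 UMIs, but 7 of Eln, 3 of Mfap2 and 0 of Ltbp1. It carried 6 stellate and 5 fibroblast markers and was placed with the stellate cells, and its doublet score was not among those removed in the alternative with Scrublet. The next cells for Mfap5, with 30 and 8 UMIs, were typed as fibroblasts and came next for Fbln2 as well. The cell with 30 was among those that Scrublet removed. Of the 7 wild-type cells with Mfap5, all 7 held Fbn1 and Eln, 6 held Fbln2 and 3 held Mfap2.

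Within the mesenchymal gate, fibroblast and stellate cells differed in which of the genes they held. Mfap5 was at 266 CPM (194 to 355) in 14 wild-type fibroblasts, of which 4 had it, and 23.9 in 220 stellate cells, of which 2 had it. Without the richest cell of each (30 of 45 and 69 of 74 UMIs) these levels were 115 and 1.67. In the knockout, 1 fibroblast held 3 Mfap5 UMIs (15.9 CPM) and stellate cells 0. Mfap4 was at 313 (234 to 409) in wild-type fibroblasts and 71.3 (62.2 to 81.3) in stellate cells, and at 519 and 109 in the knockout. Eln was at 454 and 208 in the wild type and 630 and 265 in the knockout, again higher in fibroblasts in each library. Fbln2 was at 153 and 40.0 in the wild type and 138 and 18.8 in the knockout, or 107 and 11.3, and 66.5 and 14.8, without the richest cell of each. Emilin1 went the other way in the wild type, with 212 (149 to 294) in fibroblasts and 347 (327 to 368) in stellate cells, while the knockout values of 265 (197 to 349) and 298 (280 to 317) overlapped.

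Mfap2 was at 100 CPM (58.4 to 161, 17 UMIs) in wild-type fibroblasts, 52.2 (44.5 to 60.9) in stellate cells and 49.3 (18.1 to 107) in smooth muscle cells, with intervals that all overlapped. In the knockout, stellate cells held 2 Mfap2 UMIs and fibroblasts and smooth muscle cells 0. Ltbp1 was highest in smooth muscle in the wild type, at 493 (376 to 634) in 10 cells, and at 101 (53.9 to 173) in 8 knockout cells. A single cell held 47 of those 60 wild-type UMIs and another 12 of the 13 knockout UMIs. Without them the levels were 140.5 (74.8 to 240) and 8.48 (0.215 to 47.2), so the first place of smooth muscle rests on 1 cell, whose gate value for macrophages or monocytes was 34.5% of its mesenchymal gate value. Among stellate cells, the most numerous subtype, Ltbp1 was at 168 (wild type) and 251 (knockout), a log2 ratio of 0.58 (0.42 to 0.74). Of the 9 genes other than Mfap2, 0 were 2-fold or more higher and 2, Mfap5 and Fbln2, 2-fold or more lower in knockout stellate cells, beside 5.36% and 1.89% of 12395 genes and 7.24% either way. The deepest cell is typed as stellate and holds 69 of the 74 Mfap5 UMIs and 90 of the 124 Fbln2 UMIs of wild-type stellate cells, so both of those values rest on it. The fibroblast and smooth muscle values rest on 8 to 14 cells a library.

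**Figure D5:**
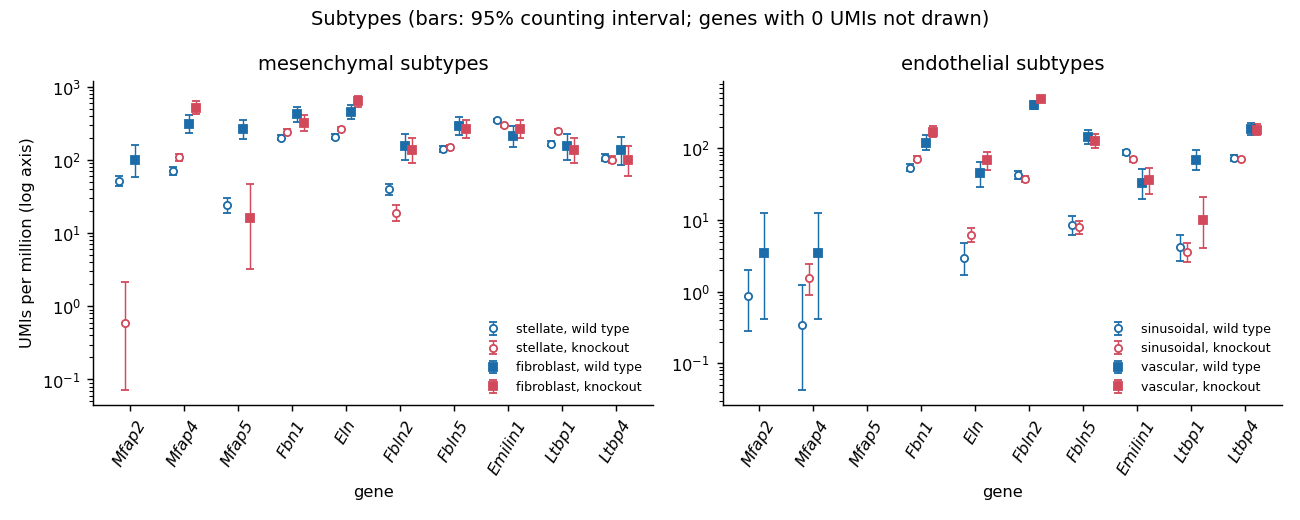
CPM (log axis) in stellate cells (open circles) and fibroblasts (squares) on the left and in sinusoidal (open circles) and vascular (squares) endothelial cells on the right, wild type in blue and knockout in red, with 95% counting intervals as bars and genes at 0 UMIs not drawn. Mfap5, Mfap4 and Eln lie higher in fibroblasts, and Fbln2, Fbln5 and Eln lie higher in vascular cells, while Emilin1 lies lower in vascular cells.

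Endothelial cells showed a split of the same kind. Vascular endothelial cells (72 wild type, 65 knockout) line larger vessels, and sinusoidal cells (965 and 1384) line the liver's capillaries. Of 6 genes with at least 50 UMIs over these cells of the wild type, 5 were 2-fold or more higher in vascular cells, beside 4.27% of 9486 genes. The knockout also had 5 of 6, beside 6.72%, with Eln among the 6 in place of Ltbp1. Fbln2 was at 405 CPM in vascular and 43.1 in sinusoidal cells of the wild type, and at 489 and 37.7 in the knockout. Fbln5 was at 147 and 8.48, and at 127 and 8.01. Both fibulins thus had a higher level in vascular cells of each library, although the more numerous sinusoidal cells held 249 of the wild-type Fbln2 UMIs and vascular cells 235.

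Ltbp4 (wild type 188 and 74.3 CPM, knockout 182 and 71.6) and Fbn1 (121 and 53.5, then 172 and 72.2) were also higher in vascular cells. Ltbp1 stood at 40 vascular and 24 sinusoidal UMIs in the wild type, with 26 of the 40 in 1 cell, and at 7 and 42 UMIs in the knockout. Eln was at 44.8 and 2.94 CPM in the wild type and 68.0 and 6.22 in the knockout. Emilin1 went the other way, at 32.7 and 87.8 in the wild type and 36.2 and 70.2 in the knockout, a log2 difference of -1.35 (-2.17 to -0.76) and -0.90 (-1.59 to -0.38). Mesenchymal gate markers were at 174 and 150 CPM in wild-type vascular and sinusoidal cells and at 152 and 124 in the knockout, so they were nearly level between these subtypes.

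Endothelial levels were then compared between genotypes. Of 8 genes other than Mfap2 with enough UMIs, 3 were higher and 5 lower in the knockout, 1 and 4 beyond counting error, beside 48.5% of all genes higher, with a median log2 ratio of -0.16 beside -0.02 over 14016 genes. Fbn1 was higher, 59.5 and 79.4 CPM (log2 ratio 0.41, 0.25 to 0.59). Emilin1 (81.6 and 67.2, -0.28), Fbln2 (75.6 and 65.8, -0.20) and Fbln5 (23.1 and 15 CPM, -0.63) were lower. The vascular share of endothelial cells was 6.28% (wild type) and 4.10% (knockout). Within subtypes, the log2 ratio of Fbln5 was -0.10 (-0.60 to 0.45) in sinusoidal and -0.20 (-0.65 to 0.25) in vascular cells. Fbln2 had -0.20 (-0.42 to 0.03) and 0.27 (0.03 to 0.52). In vascular cells 1 knockout cell held 40 of its 338 Fbln2 UMIs. Without the richest cell of each library the vascular levels were 400 (349 to 457) in the wild type and 443 (394 to 496) in the knockout, with intervals that overlapped. Emilin1 had -0.32 (-0.48 to -0.16) in sinusoidal cells. Past 2-fold were Mfap4 (higher, 4 and 19 UMIs, interval including 0) and Ltbp1 (lower), beside 4.19% of all genes higher, 2.29% lower and 6.48% either way. Ltbp1 was at 10.7 (70 UMIs) in the wild type and 4.08 (52 UMIs) in the knockout, a log2 ratio of -1.39 (-1.94 to -0.85). One wild-type vascular cell held 26 of the 70 UMIs, and without the richest cell of each library the ratio was -0.84 (-1.46 to -0.21). Within sinusoidal cells it was -0.24 (-0.97 to 0.57).

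In cholangiocytes, 5 of 8 genes other than Mfap2 were 2-fold or more higher in the knockout and 0 were 2-fold or more lower, beside 7.78% and 1.28% of 14083 genes and 9.06% either way, at levels far below those of mesenchymal cells. Eln was at 1.63 CPM (9 UMIs) in the wild type and 8.63 (73 UMIs) in the knockout, Fbn1 at 1.45 and 7.80, Mfap4 at 1.09 and 6.85, and Fbln5 at 0.724 and 5.79. Emilin1 was at 3.98 and 8.39. Summed mesenchymal gate markers were at 477 and 572 CPM in the same cells. Knockout cholangiocytes with 3 or more of those markers were 109 of 250, at a median of 40720 UMIs against 7412 in the others. These deeper cells held 93.5% of the UMIs of Mfap4, Fbn1, Eln and Fbln5, a share that includes their greater depth. By CPM these genes stood at 7.76, 8.91, 9.48 and 6.90 in them and 2.66, 2.66, 4.66 and 0.666 in the others. In the wild type such cells (60 of 217) held 74.1%, at 0.991, 1.24, 1.98 and 0.743 CPM against 1.35, 2.02, 0.674 and 0.674. The part of those markers in the ratios was not tested. Removing the cells with the highest doublet scores took Mfap4 from 58 to 11 knockout UMIs and its log2 ratio from 2.46 to 0.26, while Eln stood at 1.56 (0.56 to 3.0) and Fbn1 at 1.65 (0.61 to 3.22). Fbln2, the gene with its own cholangiocyte level, was lower in the knockout, 35.3 and 25.4 CPM (log2 ratio -0.48, -0.76 to -0.19).

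None of the 10 genes was found in 8 wild-type and 15 knockout mesenchymal cells. The median wild-type mesenchymal cell held UMIs of 5 of the 10 genes, and 61 of 262 cells (23.3%) held 7 or more. Of the knockout cells, which had 2 Mfap2 UMIs in all, 48 of 252 (19.0%) held 7 or more, and the median over the 9 other genes was 5 in both libraries.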

How the data were processed

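The authors deposited raw UMI counts per gene and cell barcode for each library, which per the file headers came from Cell Ranger 7.0.1. The submitters' processing notes list Cell Ranger 3.1.0, Seurat and build mm10, and the difference in version could not be resolved. Chromium 3′ v3 beads were used, per the labels' protocols. The counting of intronic reads and any earlier removal of cells are not given in the sources used here. GENCODE M21 holds 99.6% of the gene identifiers.

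The cell filter was a minimum of 200 genes and a maximum of 20% mitochondrial UMIs (11370 wild-type and 12723 knockout cells passed). For each cell type, marker UMIs per 10000 were divided by their median in cells with at least 3 of its markers and a 2-fold lead. A cell was gated when its top type had at least 3 markers, a value of at least 0.2 and a lead of 2-fold over the next type. Mesothelial and mesenchymal gates did not compete. A first gate on detected markers alone was replaced, and Ccr7 and Wdfy4 were dropped from the dendritic markers, after the data were seen. Cells with markers of several types were left out as possible doublets (6.25% and 7.02%), and 12.9% and 11.9% had too few markers. Scrublet (scanpy 1.11.5) was an alternative, removing 1034 and 1295 cells, since its automatic threshold marked 1 wild-type cell (0.00849%) and 661 knockout cells (5.14%) and so did not work in the wild type. Subtypes were given by the highest share of at least 3 subtype markers.

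UMIs were summed over cells, with 1 added to each sum for log2 ratios. A ratio needed 20 UMIs or more, both libraries summed. Intervals at 95% are exact Poisson (levels), Clopper-Pearson (shares) and exact conditional binomial (ratios). Upper limits for a count of 0 use 3 counts. Reads of 1 molecule are collapsed into a UMI, but intervals and limits cover counting error only. On simulated mesenchymal sums over 12730 genes, the true ratio lay in 95.7% of intervals, and 98.5% of 200 genes changed 2-fold had the right sign. Those sums were drawn with counting error only, which is the error the intervals assume. They check the computing and do not cover UMIs gathered in few cells or variation between animals. Scipy and numpy in Python did the computing.

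All 10 genes were named. From the wider list, the 5 with the highest mesenchymal levels and any past 2-fold were named. For Mfap2 and Emilin1 the 5 most correlated genes were named, and for Mfap4, Mfap5, Eln, Fbln2 and Ltbp4 some of the 5. Those of Fbn1, Fbln5 and Ltbp1 are not given. The 10 genes were chosen by name and not by measured values, but they, the lists and the tests were chosen with earlier results of these data known. Promoter windows came from RefSeq, matched by symbol (7 of 10 genes).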

Additional observations from a re-analysis of the deposited data

Results flagged for a closer look

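Ltbp1, Emilin1 and Fbln5 had knockout to wild-type differences that pointed opposite ways in different cell types of the same libraries, with counting intervals on either side of 0. The differences between cell types were not tested. For Ltbp1 the log2 ratio was 0.39 in mesenchymal cells, -1.39 in endothelial cells and 0.52 in cholangiocytes. For Emilin1 it was -0.20 in mesenchymal cells, -0.28 in endothelial cells and 1.03 in cholangiocytes. For Fbln5 it was -0.63 in endothelial cells and 2.71 in cholangiocytes, from 4 and 49 UMIs in the latter. A single knockout cholangiocyte held 15 of those 49 UMIs. Without the cells of highest doublet scores the cholangiocyte ratios were 1.6 (0.3 to 3.9) for Fbln5, 1.15 for Emilin1 and 1.20 for Ltbp1. A single wild-type endothelial cell held 26 Ltbp1 UMIs, against 44 in the others. Without the richest endothelial cell of each library the Ltbp1 ratio was -0.84 (-1.46 to -0.21). The endothelial values pool subtypes whose shares differ between libraries (vascular cells 6.28% and 4.10%). Within sinusoidal and vascular cells Fbln5 had -0.10 and -0.20, and within sinusoidal cells Ltbp1 had -0.24, with intervals that include 0.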

How the results depend on the processing

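No paired analysis was possible because each genotype has 1 library. The log2 ratio of Mfap2 lay between -7.42 and -5.90 over 12 alternatives, and its wild-type mesenchymal level between 47.3 and 59.4 CPM over 9. In mesenchymal cells, Fbn1 (0.11 to 0.29), Eln (0.24 to 0.60), Ltbp1 (0.25 to 0.70) and Mfap5 (-6.36 to -1.96) kept their direction in all 12. With the mean of per-cell values, Mfap4 became -0.16 and Fbln2 0.38, and the median of the 9 genes -0.10. Fbln2 was 0.34 without the 5 richest cells of each library, 0.32 in cells thinned to 5000 UMIs and 0.40 without the deepest wild-type cell, and the median of the 9 genes was then 0.27. Emilin1 was 0.01 in thinned cells. The cause was not tested, except that leaving out cells shows which ones carry the Fbln2 value. The share of wild-type mesenchymal cells with an Mfap2 UMI was 22.1% after thinning, since each cell then holds fewer UMIs. In cells thinned to 1000 UMIs only 11 held Mfap2, and by CPM 2 of 9 genes were higher in them, Mfap4 and Eln not among these. That depth is too low to place single genes. With cells thinned to 5000 UMIs, 0 genes with at least 50 UMIs had 50% or more in 5 cells, because Mfap5 (19 UMIs, 89.5% in 5 cells) and Fbln2 (21 UMIs, 66.7%) fell under that minimum. The alternatives without the deepest cell, in stellate cells for the Mfap2 comparison, without the richest endothelial, cholangiocyte and subtype cells, and with the automatic Scrublet threshold were chosen after seeing the data. With 1 library a genotype, no alternative here measures variation between animals.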
